A study of Homo sapiens with 16 samples.

Results

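Hyaluronan synthesis and binding were followed at 6 genes, the synthases HAS2 and HAS3, the link protein HAPLN3, the proteoglycan VCAN and the receptors CD44 and HMMR. They were chosen by name, and for each the peaks of all 12 peak lists were taken in the gene's span with 10 kb on each side (hg38). The 6 genes were 6 of 19974 protein-coding genes, and their windows held 307 of 692199 peaks. The cells were H69, an immortalised human cholangiocyte line, cholangiocytes being the epithelial cells that line bile ducts. They received recombinant human TGF-beta at 10 ng/ml or vehicle for 16 h, and no other treatment or genetic change is named in the labels. ChIP-seq, which sequences the DNA pulled down with an antibody, covered SMAD3, the transcription factor activated by the TGF-beta receptor, and H3K27ac and H3K9ac, acetylation marks of active promoters and enhancers. Each of the 3 targets had 2 TGF-beta and 2 vehicle libraries, numbered 4 and 5 for SMAD3 and 1 and 2 for the marks.

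Hyaluronan is a long, unsulfated sugar chain that synthases at the plasma membrane make from nucleotide sugars and push out of the cell. Versican binds it, link proteins lock that binding, and CD44 and HMMR bind it as receptors. In the liver it is known as a matrix component that accumulates in fibrosis, a process in which TGF-beta is a main growth factor.

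Each gene was measured by how much of its window lay inside peaks, in kb, and changes are differences of log2(length + 500 bp), TGF-beta minus vehicle, after each library was centred on the median over genes. Peak scores are the authors' -log10 of a p or q value and serve here as ranks inside single libraries; since the lists differ in length and scale, scores and ranks are not compared between treatments. Read depth is unknown, since the lists hold no read counts, and a site bound or acetylated in fewer cells cannot be told apart from one with less signal in every cell. Peaks numbered 33700 and 34413 in the SMAD3 TGF-beta libraries against 22451 and 25268 with vehicle, 92714 and 90092 against 82259 and 83429 in H3K27ac, and 54682 and 56825 against 61297 and 55069 in H3K9ac. The centring removed median shifts of 0.32, 0.09 and -0.09 on the log2 scale in SMAD3, H3K27ac and H3K9ac. With limma and Benjamini-Hochberg adjustment at 0.05, 12.8% of 12508 genes changed in SMAD3, 26.4% of 13994 in H3K27ac and 9.47% of 14605 in H3K9ac. Of these calls 86.9%, 55.9% and 44.9% were higher with TGF-beta, and without centring these shares were 99.4%, 74.0% and 32.3%. Whether replicates came from separate cultures is not in the labels, and p-values therefore measure only the spread between these libraries, and an exact two-sided permutation test of 2 against 2 cannot go below 0.333. The label of SMAD3 TGF-beta replicate 5 gives a passage range that ends 1 passage later than that of the other libraries used; no member passed in SMAD3 with or without it, and its part in the results was not tested. Of the 7 cholangiocyte markers, CFTR had no peak in any library, and the others had H3K27ac or H3K9ac peaks with either treatment. KRT19, a biliary keratin, fell in all 3 targets, and SOX9, a biliary transcription factor, fell in H3K27ac (adjusted p = 0.0117 for KRT19 and 0.00760 for SOX9 in H3K27ac, limma). Summed over all 7, H3K27ac covered 50.3 to 50.7 kb with TGF-beta and 51.5 to 55.8 kb with vehicle, and H3K9ac 30.4 to 35.8 kb and 37.4 to 41.9 kb. Over 5 leukocyte markers, of which ITGAM was at 0 in every library, H3K27ac covered 5.78 to 5.80 kb with TGF-beta and 8.35 to 9.02 kb with vehicle. Over 5 hepatocyte markers, of which ALB and TTR were at 0 in every library, it covered 10.2 to 10.4 kb and 6.97 to 8.65 kb. Summed over 7 fibroblast and mesenchymal markers, H3K27ac covered 25.8 to 27.5 kb with TGF-beta and 18.7 to 18.9 kb with vehicle, SMAD3 covered 7.25 to 7.43 kb and 2.79 to 3.40 kb, and DCN, one of their defining genes, was at 0 in every library. The part of these markers in the results was not tested.

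In H3K27ac, 4 of the 6 genes changed, where 26.4% of all genes did. HAPLN3 and CD44 rose, and HAS3 and VCAN fell, beside 14.8% and 11.7% of all genes. In H3K9ac HAPLN3 alone changed and rose, 1 of 6 genes beside 9.47% of all genes, and none fell, where 5.22% of all genes did. In SMAD3 none of the 5 genes that could be tested passed limma's adjusted threshold, beside 12.8% of all genes (11.2% higher and 1.68% lower), and 1 of them, VCAN, had an unadjusted p under 0.05. HAPLN3 was not tested in SMAD3 because it fell below the minimum mean of 500 bp, and in H3K27ac it passed that minimum through its TGF-beta libraries, so these counts are descriptions. The median change of the members tested was 0.12 in SMAD3, -0.13 in H3K27ac and 0.08 in H3K9ac, beside medians of -0.03, -0.03 and 0.0028 over all genes tested.

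**Figure D1:**
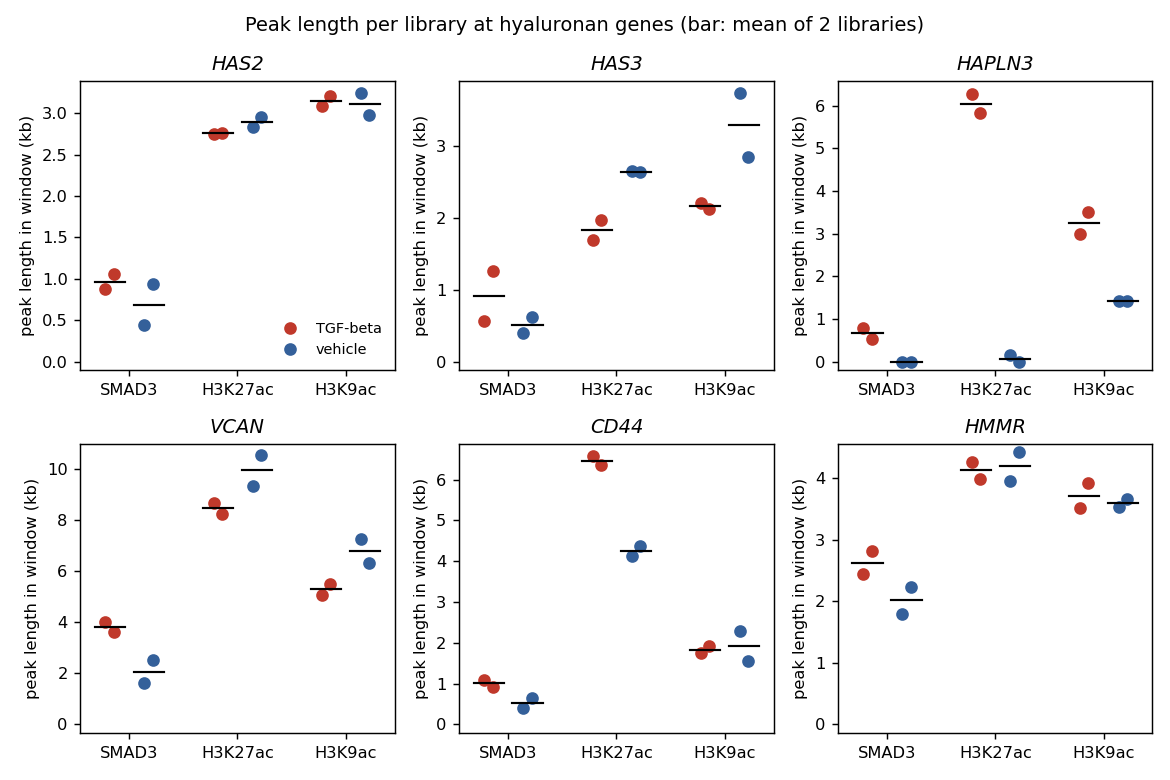
Peak length in the window of each of the 6 genes (kb) for the 3 targets. Each point is 1 library, red with TGF-beta and blue with vehicle, and the bar is the mean of 2 libraries; the HAPLN3 H3K27ac points lie at 6.27 and 5.82 kb with TGF-beta and at 0.152 and 0 kb with vehicle.

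**Figure D2:**
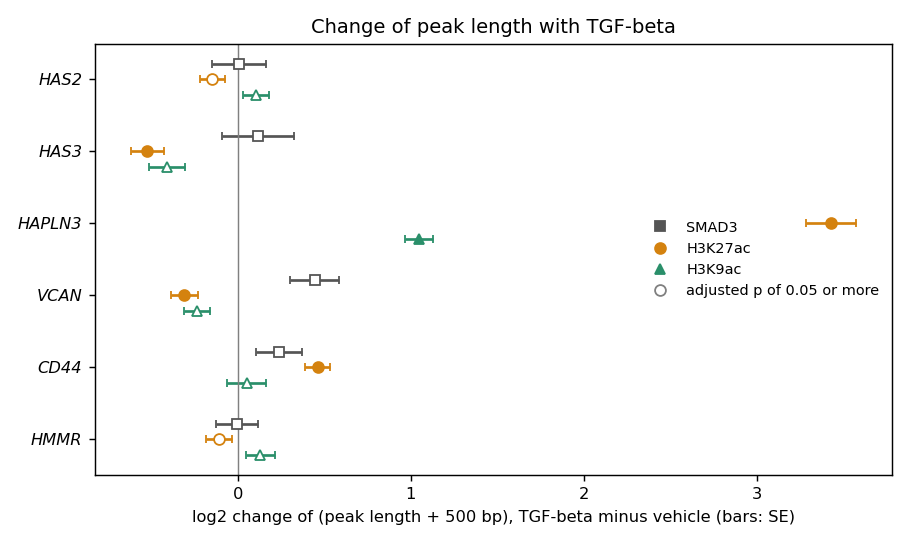
Log2 change of peak length plus 500 bp, TGF-beta minus vehicle, with its SE, for each gene and target; filled symbols passed an adjusted p of 0.05 and open symbols did not. HAPLN3 in H3K27ac stands at 3.43, and the other changes lie between -0.52 and 1.05; HAPLN3 has no SMAD3 symbol because it was not tested there.

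HAPLN3 encodes a link protein that stabilises the binding of proteoglycans to hyaluronan. It lies on the minus strand at chr15:88877294-88895544, and the spans of ACAN and MFGE8 reach into its window. H3K27ac covered 6.27 and 5.82 kb of the window in the TGF-beta libraries, against 0.152 and 0 kb in the vehicle libraries. Almost no H3K27ac was called there with vehicle, and both TGF-beta libraries stood above both vehicle libraries, as in 40.7% of all genes tested. The log2 change was 3.43 ± 0.146 (SE, adjusted p = 5.72e-05, limma, and 0.000342 with no minimum on peak length). Since the gene reached the minimum through its TGF-beta libraries and vehicle is at or near 0, this change and its p are given as a description, and its size is set by the pseudocount. H3K9ac covered 2.99 and 3.52 kb with TGF-beta, against 1.43 and 1.43 kb with vehicle, and rose by 1.05 ± 0.0803 on the log2 scale (SE, adjusted p = 0.00047, limma). The H3K9ac groups did not overlap either, as in 9.40% of all genes tested, and H3K9ac was already present with vehicle. TGF-beta replicate 2 of both marks was sequenced on another lane than the other mark libraries; with it left out, the changes within 1 lane were 3.46 in H3K27ac (adjusted p = 0.000112) and 1.01 in H3K9ac (adjusted p = 0.000174, limma). The H3K27ac change was 5.17 with a pseudocount of 100 bp, 1.89 with 2000 bp, 1.82 in a window of 2.5 kb on each side and 0.93 in one of 50 kb, and it passed the threshold in each.

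SMAD3 peaks at HAPLN3 covered 0.785 and 0.542 kb in the TGF-beta libraries and were listed at 0 in both vehicle libraries. The peak shared by both TGF-beta libraries (chr15:88895011-88895537) lay 0.01 to 0.53 kb inside the gene from its start site. It was weak, with scores at the 53.0 and 40.7 percentile of all peaks in its own library. With vehicle listed at 0, the SMAD3 change of this window is given only as a description. With no minimum on peak length it was 0.89 (adjusted p = 0.00925, limma), a size set by the pseudocount. In the window of 50 kb on each side the SMAD3 change was 0.27 (adjusted p = 0.210, limma). A further SMAD3 peak in each TGF-beta library lay farther upstream, at -5.68 to -5.40 kb from the start site in replicate 4 and at -5.10 to -4.78 kb in replicate 5, where negative distances are upstream. Both of these lay inside the H3K27ac gained with TGF-beta.

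Most of the H3K27ac gained in the HAPLN3 window was upstream of the gene and not in it. A merged region of 4548 bp (chr15:88897627-88902174) lay at -6.63 to -2.08 kb from the start site, was present with TGF-beta in both libraries and with vehicle in none, and reached into MFGE8, which encodes a secreted glycoprotein that bridges apoptotic cells and phagocytes. Inside the span of HAPLN3 itself H3K27ac covered 0.628 and 0.689 kb with TGF-beta, against 0.152 and 0 kb with vehicle. Inside the spans of neighbouring genes it covered 4.0 and 3.64 kb with TGF-beta and 0 kb in both vehicle libraries. The region also lies in the window of MFGE8, where H3K27ac averaged 12.7 ± 0.394 kb with TGF-beta and 5.84 ± 0.277 kb with vehicle (SD, n = 2 each; log2 change 0.97, adjusted p = 0.000291, limma). Which of the 2 genes the region belongs to cannot be told from peak positions. Of the 7 merged H3K27ac regions of HAPLN3, 4 were gained and none was lost, where 12% of all H3K27ac regions were gained and 4.72% lost. Of its 10 H3K9ac regions 5 were gained, all between -5.84 and -2.11 kb, where 5.15% of all H3K9ac regions were. The H3K9ac region over the start site, at -0.08 to 1.02 kb, was called in all 4 libraries.

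**Figure D3:**
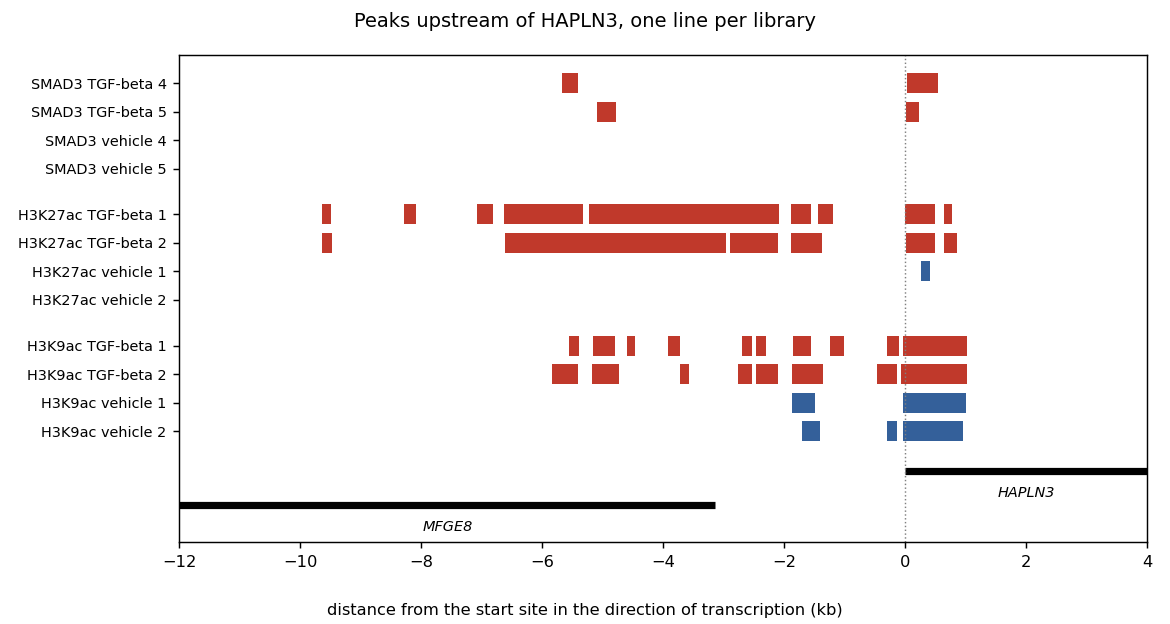
Called peaks around the start of HAPLN3, 1 line per library, with distance from the start site in kb along the direction of transcription; black bars are the spans of HAPLN3 and MFGE8. H3K27ac at -6.63 to -2.08 kb and the SMAD3 peak at 0.01 to 0.53 kb are present in both TGF-beta libraries and in no vehicle library, while H3K9ac at the start site is present in all 4.

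The promoter sequence of HAPLN3 is shown because the SMAD3 peak gained with TGF-beta begins just downstream of it. The 250 bases before the start site (chr15:88895545-88895794, minus strand, RefSeq, GRCh38.p14) are printed 5′ to 3′, and capitals mark the 2 copies of the SMAD box, CAGAC, here read as GTCTG on the other strand, whose first bases lie 141 and 53 bases upstream of the start site.
HAPLN3: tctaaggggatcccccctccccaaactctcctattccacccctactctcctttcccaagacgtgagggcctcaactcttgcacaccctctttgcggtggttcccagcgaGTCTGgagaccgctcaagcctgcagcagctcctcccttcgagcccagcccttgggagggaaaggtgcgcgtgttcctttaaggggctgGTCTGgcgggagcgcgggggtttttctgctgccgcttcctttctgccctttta
A promoter entry was found for 5 of the 6 genes, and each was searched on both strands for CAGAC, for the palindromic SMAD-binding element GTCTAGAC and for the AP-1 element TGANTCA. No copy of 1 of these motifs can lie wholly inside another. CAGAC occurred in 37.3% of 22156 promoters of this length, GTCTAGAC in 0.208% and TGANTCA in 5.36%. Among the members, HAPLN3 alone held CAGAC, and none held the other 2 elements. No SMAD3 peak covered any of these 250 bases in HAPLN3, and H3K9ac peaks covered 174 and 185 of them with TGF-beta and 31 and 140 with vehicle.

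HAS2, the synthase that makes long hyaluronan chains and is the main synthase in many tissues, lies at chr8:121612116-121641440. Its H3K27ac covered 2.75 and 2.77 kb with TGF-beta, against 2.83 and 2.95 kb with vehicle. H3K9ac covered 3.08 and 3.21 kb with TGF-beta and 3.25 and 2.97 kb with vehicle. The H3K27ac values with TGF-beta lay just below those with vehicle, as in 20.9% of all genes tested, and the H3K9ac values overlapped. Neither change passed the test (log2 change -0.15, adjusted p = 0.195, and 0.11, adjusted p = 0.457, limma). SMAD3 covered 0.874 and 1.06 kb with TGF-beta, against 0.441 and 0.940 kb with vehicle, with overlapping groups and a log2 change of 0.0074 ± 0.156 (SE, adjusted p = 0.982, limma). Its direction was negative in 4 of the other settings. All peaks of HAS2 lay within 5 kb of the upper end of its span, where the antisense gene HAS2-AS1 is also annotated. A SMAD3 region, 1.25 to 1.84 kb inside that end, was called in all 4 libraries. The acetylated region around it and the one over the end of the gene were likewise called in all 4 libraries of each mark.

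HAS3, a synthase that makes shorter hyaluronan chains, lies at chr16:69083484-69118719, and its start site in the promoter table is at position 69107540, inside that span. The spans of TANGO6, CHTF8 and DERPC reach into its window. H3K27ac covered 1.70 and 1.97 kb with TGF-beta, against 2.66 and 2.64 kb with vehicle. Of this, 0.574 and 0.487 kb with TGF-beta and 0.631 and 0.696 kb with vehicle lay in the spans of neighbouring genes. H3K9ac covered 2.21 and 2.13 kb with TGF-beta, against 3.74 and 2.85 kb with vehicle. Both marks were lower in both TGF-beta libraries, as in 20.9% of all genes in H3K27ac and 40.9% in H3K9ac. H3K27ac fell by 0.52 on the log2 scale (SE 0.0943, adjusted p = 0.00842, limma), and fell by 0.62 within 1 lane. The H3K9ac change of -0.41 ± 0.104 (SE) did not pass (adjusted p = 0.0524), although it did in 6 of 14 other settings (adjusted p 0.0107 to 0.775). In a window of 50 kb on each side the H3K27ac change was 0.054 (adjusted p = 0.678), and the call was lost.

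The 1 H3K27ac region lost at HAS3 lay upstream of the start site used here, yet inside the span of the gene. H3K9ac was shorter around that region and at the start site. H3K27ac at chr16:69088797-69089836, -18.74 to -17.70 kb from it, was called in all 4 libraries. An H3K27ac region beside it (-17.61 to -17.32 kb) and 2 H3K9ac regions within it (-18.26 to -17.97 kb and -17.91 to -17.70 kb) were called in both vehicle libraries and in neither TGF-beta library. Within 5 kb of the start site H3K27ac covered 0.816 and 1.10 kb with TGF-beta, against 0.732 and 1.03 kb with vehicle, and farther away it covered 0.881 and 0.875 kb, against 1.93 and 1.61 kb. In H3K27ac the groups overlap near the start site and are apart beyond it. H3K9ac covered 2.06 and 2.12 kb within 5 kb with TGF-beta, against 2.66 and 2.37 kb with vehicle, and farther away 0.149 and 0 kb, against 1.08 and 0.485 kb. In H3K9ac both TGF-beta libraries were below both vehicle libraries in both parts, as over the whole windows of 40.9% of all genes tested. The parts were not tested in either mark, and no share over all genes was taken for them. Over the 250 bases before the start site, H3K9ac peaks covered 144 and 134 with TGF-beta and all 250 in both vehicle libraries. SMAD3 covered 0.563 and 1.27 kb with TGF-beta, against 0.407 and 0.627 kb with vehicle, and did not pass the test (log2 change 0.12 ± 0.206 SE, adjusted p = 0.725, limma). In TGF-beta replicate 5, 0.438 kb of the SMAD3 length lay in the spans of neighbouring genes. The single constant SMAD3 region lay at -1.68 to -0.85 kb from the start site, inside acetylation called in all 4 libraries of both marks.

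VCAN encodes versican, a large chondroitin sulfate proteoglycan whose end domain binds hyaluronan, and lies at chr5:83471744-83582302. H3K27ac covered 8.66 and 8.25 kb with TGF-beta, against 9.34 and 10.5 kb with vehicle. It was lower in both TGF-beta libraries, as in 20.9% of all genes tested, and fell by 0.31 on the log2 scale (SE 0.0767, adjusted p = 0.0279, limma). The call was lost without centring (-0.22, adjusted p = 0.146) and on leaving out TGF-beta replicate 1 (-0.32, adjusted p = 0.0925), TGF-beta replicate 2 (-0.29, adjusted p = 0.130) or vehicle replicate 2 (-0.26, adjusted p = 0.0945), over a range of adjusted p of 0.00519 to 0.146 in all settings. H3K9ac covered 5.08 and 5.51 kb with TGF-beta, against 7.26 and 6.31 kb with vehicle, without passing the test (log2 change -0.24, adjusted p = 0.106, limma). It passed with a pseudocount of 2000 bp (adjusted p = 0.0418) and with the trend and robust options (adjusted p = 0.0463), among adjusted p up to 0.314 in the other settings. SMAD3 covered 4.01 and 3.62 kb with TGF-beta, against 1.62 and 2.52 kb with vehicle. Both TGF-beta libraries stood above both vehicle libraries, as in 68.9% of all genes tested, and the log2 change of 0.45 ± 0.143 (SE, adjusted p = 0.0790, limma) passed only without vehicle replicate 5 (0.59, adjusted p = 0.0498) among settings whose adjusted p reached 0.332.

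Peak length at VCAN differed between its ends. Within 5 kb of the start site H3K27ac covered 5.43 and 5.45 kb with TGF-beta, against 4.88 and 4.82 kb with vehicle. Farther away it covered 3.23 and 2.80 kb with TGF-beta, against 4.47 and 5.71 kb with vehicle. Near the start both TGF-beta libraries stood above both vehicle libraries, and farther away both stood below them. Over whole windows, H3K27ac stood above in 40.7% and below in 20.9% of all genes tested. These parts were not tested, and no share over all genes was taken for them. Farther than 5 kb from the start H3K9ac covered 0 kb in both TGF-beta libraries and 1.95 and 1.21 kb with vehicle. The 5 H3K9ac regions lost there lay at 91.07 to 96.95 kb from the start, inside the span of VCAN and of the annotated locus LOC124901021. H3K27ac at the same places was still called in all 4 libraries. Of the 8 H3K9ac regions of VCAN, 5 were lost, where 6.15% of all H3K9ac regions were.

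**Figure D4:**
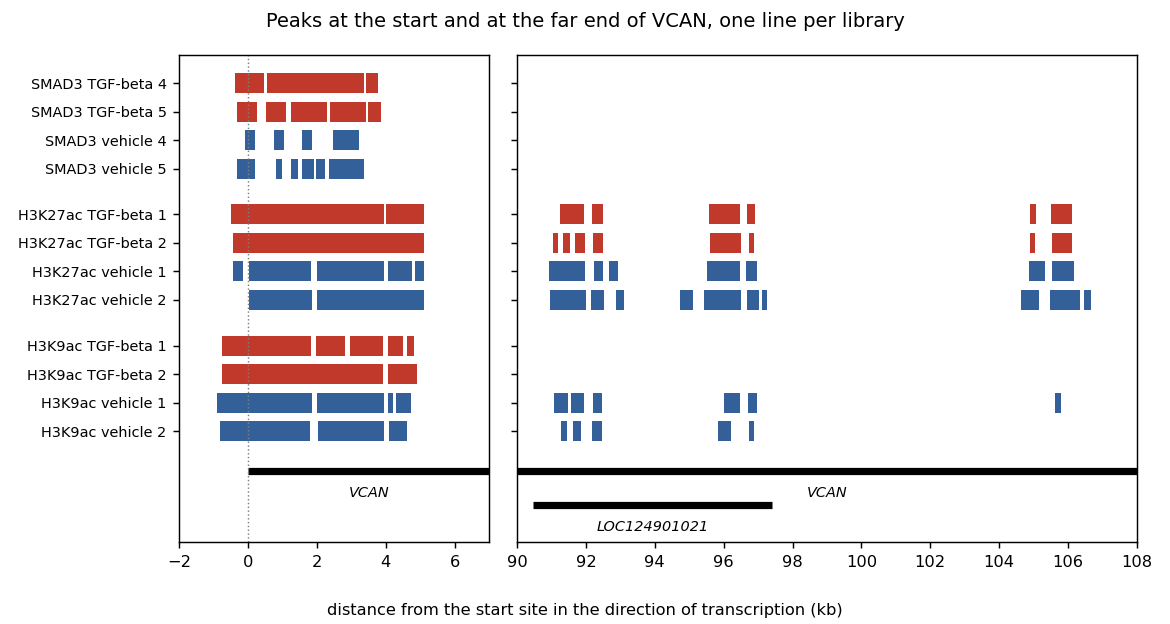
Called peaks at the start (left) and at the far end (right) of VCAN, 1 line per library, with distance from the start site in kb; red is TGF-beta and blue is vehicle. At the start SMAD3 and H3K27ac peaks are longer with TGF-beta, and at 91.07 to 96.95 kb H3K9ac peaks are present in both vehicle libraries and in neither TGF-beta library.

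All SMAD3 peaks of VCAN lay near its start, in 2 regions called in all 4 libraries, at -0.38 to 0.47 kb and 0.52 to 3.41 kb, and in a region gained at 3.42 to 3.85 kb. The promoter is shown because SMAD3 peaks covered all 250 of its bases in both TGF-beta libraries, against 80 and 250 with vehicle. It lies at chr5:83471494-83471743 (plus strand, RefSeq, GRCh38.p14) and holds none of the motifs searched.
VCAN: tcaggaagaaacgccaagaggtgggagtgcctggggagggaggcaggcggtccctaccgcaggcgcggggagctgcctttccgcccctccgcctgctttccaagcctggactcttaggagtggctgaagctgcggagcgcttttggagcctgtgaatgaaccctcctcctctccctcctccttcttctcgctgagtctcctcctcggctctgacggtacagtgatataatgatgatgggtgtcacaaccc
H3K27ac peaks covered all 250 bases in both TGF-beta libraries, against 91 and 0 with vehicle, while H3K9ac peaks covered all of them in every library.

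CD44, the main cell surface receptor for hyaluronan, lies at chr11:35139171-35232402. H3K27ac covered 6.57 and 6.36 kb with TGF-beta, against 4.14 and 4.37 kb with vehicle. Both TGF-beta libraries stood above both vehicle libraries, as in 40.7% of all genes tested. H3K27ac rose by 0.46 ± 0.0719 on the log2 scale (SE, adjusted p = 0.00457, limma), and by 0.47 within 1 lane. The rise passed the threshold in all 14 other settings (adjusted p 0.000466 to 0.0264). H3K9ac covered 1.75 and 1.92 kb with TGF-beta, against 2.29 and 1.56 kb with vehicle, with overlapping groups and a log2 change of 0.05 ± 0.112 (SE, adjusted p = 0.828, limma) that turned to -0.039 without centring and to -0.11 without vehicle replicate 2. The H3K27ac change minus the H3K9ac change was 0.41 ± 0.144 (SE, adjusted p = 0.139, limma), so a difference between the marks did not pass, except with a pseudocount of 2000 bp (adjusted p = 0.0328) or without vehicle replicate 2 (adjusted p = 0.0463), where other settings gave adjusted p up to 0.426.

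The regions gained at CD44 in H3K27ac all lay at 26.95 kb or farther from the start. In length, H3K27ac was greater with TGF-beta both near the start and farther away. Within 5 kb of the start site it covered 2.67 and 2.76 kb with TGF-beta, against 1.97 and 1.81 kb with vehicle, and farther away 3.90 and 3.60 kb, against 2.17 and 2.56 kb. In both parts the TGF-beta libraries were above the vehicle libraries, as over the whole windows of 40.7% of all genes tested. The parts were not tested, and no share over all genes was taken for them. Of 16 merged H3K27ac regions 4 were gained, at 26.95 to 27.55, 75.27 to 75.66, 75.92 to 76.39 and 97.26 to 97.53 kb from the start, and 1 was lost, at 33.71 to 34.09 kb. The region at 75.27 to 75.66 kb (chr11:35214440-35214834) had the highest scores of those gained, 24.2 and 23.3, and overlaps the antisense gene CD44-AS1. The region at 97.26 to 97.53 kb lies past the end of the gene and was weak, with scores of 2.52 and 7.66.

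**Figure D5:**
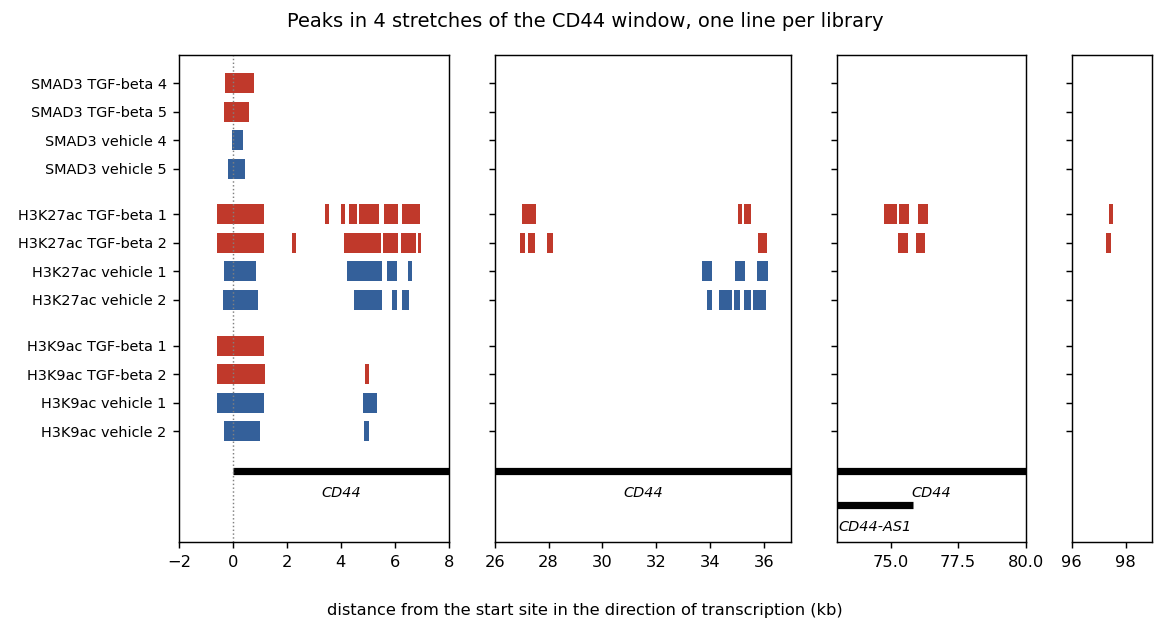
Called peaks in 4 stretches of the CD44 window, 1 line per library, with distance from the start site in kb; the stretches are cut from a longer window and red is TGF-beta, blue vehicle. H3K27ac at 26.95 to 27.55, 75.27 to 76.39 and 97.26 to 97.53 kb appears in both TGF-beta libraries and in no vehicle library, and SMAD3 appears at the start alone.

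A single SMAD3 region was called at CD44, across its start site (-0.35 to 0.77 kb), in all 4 libraries. It covered 1.09 and 0.925 kb with TGF-beta, against 0.398 and 0.661 kb with vehicle. Both TGF-beta lengths stood above both vehicle lengths, as in 68.9% of all genes tested, but the log2 change of 0.24 ± 0.132 (SE, adjusted p = 0.254, limma) did not pass. The promoter is shown because this peak covered all 250 of its bases in both TGF-beta libraries, against 39 and 207 with vehicle; it lies at chr11:35138921-35139170 (plus strand, RefSeq, GRCh38.p14) and holds none of the motifs searched.
CD44: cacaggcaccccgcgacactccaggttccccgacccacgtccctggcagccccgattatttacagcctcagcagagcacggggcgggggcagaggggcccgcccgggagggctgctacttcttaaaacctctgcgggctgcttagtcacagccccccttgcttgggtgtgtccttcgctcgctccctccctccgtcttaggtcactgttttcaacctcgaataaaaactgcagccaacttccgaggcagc
Both marks covered these 250 bases in full in every library.

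HMMR encodes an intracellular and surface hyaluronan receptor that also binds spindle microtubules in dividing cells, and lies at chr5:163460632-163491941. SMAD3 covered 2.44 and 2.82 kb with TGF-beta, against 1.80 and 2.23 kb with vehicle. The TGF-beta libraries were higher by no more than the shift shared by all genes, and the centred log2 change was -0.0041 ± 0.122 (SE, adjusted p = 0.988, limma), or 0.32 without centring (adjusted p = 0.193; 0.0886 to 0.989 over all settings). H3K27ac covered 4.26 and 3.99 kb with TGF-beta, against 3.95 and 4.42 kb with vehicle. H3K9ac covered 3.50 and 3.92 kb with TGF-beta, against 3.53 and 3.66 kb with vehicle. Both marks had overlapping groups and did not pass (log2 change -0.11, adjusted p = 0.357, and 0.13, adjusted p = 0.403, limma).

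HMMR carried the highest-ranked peaks of the 6 genes in every target. Its top SMAD3 peak ranked between the 97.6 and 98.5 percentile of its own library in all 4 libraries, and its top H3K27ac peak between the 98.9 and 99.6 percentile. The strongest SMAD3 region (chr5:163459343-163460483), called in all 4 libraries, lay at -1.29 to -0.15 kb from the HMMR start inside the span of NUDCD2, and another lay across the start, at -0.10 to 1.37 kb. The peaks were therefore shared with NUDCD2, whose own H3K27ac change did not pass (log2 change -0.15, adjusted p = 0.174, limma). A weak SMAD3 region was gained at -9.04 to -8.69 kb, where neither mark was called in any library. The promoter is shown for its motifs. The CCAAT box and TTTGAA, part of the cell cycle homology region of promoters active in dividing cells, were added to the search after this sequence had been seen.
HMMR: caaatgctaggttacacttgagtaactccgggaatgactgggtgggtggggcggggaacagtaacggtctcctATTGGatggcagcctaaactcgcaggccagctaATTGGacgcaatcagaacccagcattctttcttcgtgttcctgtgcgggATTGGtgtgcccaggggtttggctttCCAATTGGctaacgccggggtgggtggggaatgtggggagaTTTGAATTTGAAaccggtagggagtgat
Capitals mark 5 copies of CCAAT, some of them read as ATTGG on the other strand, 2 of which overlap, and 2 copies of TTTGAA side by side, in the 250 bases at chr5:163460382-163460631 (plus strand, RefSeq, GRCh38.p14). CCAAT occurred in 32.7% of 22156 promoters and TTTGAA in 11%. At least 5 copies of CCAAT, the number found in this promoter, occurred in 0.343%. No copy of either motif can lie wholly inside the other or inside the SMAD and AP-1 elements. SMAD3 peaks covered 137 and 180 of these bases with TGF-beta and 111 and 198 with vehicle.

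Set against window length, the order of the genes differed between treatments in H3K27ac. With TGF-beta HAPLN3 was highest, with 15.8 ± 0.821% of its window inside peaks (SD, n = 2), ahead of HMMR at 8.03 ± 0.375%, VCAN at 6.47 ± 0.219%, CD44 at 5.71 ± 0.131%, HAS2 at 5.59 ± 0.0172% and HAS3 at 3.32 ± 0.352%. CD44 and HAS2 differed by less than the spread between the CD44 libraries. With vehicle HMMR and VCAN led with overlapping libraries, at 8.16 ± 0.653% and 7.61 ± 0.648%, and HAPLN3 was lowest at 0.199 ± 0.281%. In H3K9ac HAPLN3 was highest with TGF-beta, at 8.51 ± 0.974%, and the fifth with vehicle, at 3.74 ± 0.0129%, while CD44 was lowest with either treatment, at 1.62 ± 0.103% with TGF-beta and 1.70 ± 0.456% with vehicle. In SMAD3 HMMR led with either treatment, at 5.12 ± 0.525% with TGF-beta and 3.92 ± 0.591% with vehicle, and VCAN was next with TGF-beta, at 2.92 ± 0.210%. With vehicle VCAN, at 1.59 ± 0.486%, overlapped HAS2, which overlapped HAS3. HAS2, HAPLN3 and HAS3 overlapped their neighbours in that order with TGF-beta.

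Whether the change of a gene differed between the marks was tested with an interaction term in 1 model. HAPLN3 alone passed, 1 of 6 genes beside 7.52% of all genes tested, with an H3K27ac change 2.38 ± 0.186 above its H3K9ac change on the log2 scale (SE, adjusted p = 0.000474, limma). With its H3K27ac at or near 0 in vehicle, this too is a description. The other 5 differences lay between -0.25 for HAS2 (adjusted p = 0.173) and 0.41 for CD44. Leaving out TGF-beta replicate 1 of both marks lowers the number of genes called over the whole genome to 201, against 1088 in the full fit, and the HAPLN3 difference stayed between 2.10 and 2.67 when any 1 replicate was left out.

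Of 18 merged SMAD3 regions, 7 were constant, 3 gained and none lost, beside 41.7%, 13.7% and 0.669% of all SMAD3 regions. H3K27ac was called in both TGF-beta libraries at 14 of the 18 and in both vehicle libraries at 11, beside 73.7% and 70.3% of all SMAD3 regions. All 7 constant SMAD3 regions had both marks in every library, as did 92.7% of all constant SMAD3 regions. The marks themselves had 47 H3K27ac regions, 8 gained, 3 lost and 18 constant, beside 12%, 4.72% and 41.9% of all regions, and 34 H3K9ac regions, 5 gained, 7 lost and 12 constant, beside 5.15%, 6.15% and 49.8%. HAPLN3 and CD44 held all 8 gained H3K27ac regions, and all 5 gained H3K9ac regions were at HAPLN3. The 7 lost H3K9ac regions were at VCAN and HAS3.

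Other genes of the hyaluronan pathway were taken from 7 lists of 51 genes in all. H3K27ac rose at 12 and fell at 2 of the 34 that could be tested, where 14.8% of all genes rose and 11.7% fell. Among those that rose, CEMIP and ITIH4 passed the minimum length through their TGF-beta libraries, so these counts are descriptions. H3K9ac rose at 3 of 34, where 4.25% of all genes rose, and SMAD3 rose at 3 of 27, where 11.2% did, and neither fell at any. The median change over the tested genes was 0.06 in H3K27ac, 0.03 in H3K9ac and -0.03 in SMAD3. In the supply of nucleotide sugars, H3K27ac rose at 3 of 7 genes. UAP1, which makes UDP-N-acetylglucosamine, had 3.83 and 3.78 kb with TGF-beta, against 1.91 and 2.20 kb with vehicle (log2 change 0.67, adjusted p = 0.0014, limma). PGM3, a step before it, had 2.54 and 2.54 kb with TGF-beta, against 1.36 and 1.27 kb with vehicle (log2 change 0.65, adjusted p = 0.00202, limma). In both genes both TGF-beta libraries stood above both vehicle libraries in H3K27ac, as in 40.7% of all genes tested. Neither gene passed in SMAD3 or H3K9ac.

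HAS1, the remaining vertebrate synthase, changed in SMAD3 and H3K27ac and did not pass in H3K9ac. H3K9ac covered 1.53 and 1.79 kb of the HAS1 window with TGF-beta, against 2.37 and 1.82 kb with vehicle (log2 change -0.17, adjusted p = 0.325, limma). SMAD3 covered 10.5 and 9.56 kb of its window with TGF-beta, against 3.0 and 4.90 kb with vehicle (log2 change 0.95 ± 0.159 SE, adjusted p = 0.00547, limma). H3K27ac covered 2.15 and 2.56 kb with TGF-beta, against 1.34 and 1.03 kb with vehicle (log2 change 0.68, adjusted p = 0.0127, limma). Its SMAD3 peaks were thus longer than its H3K27ac peaks in every library of either treatment. It was the 1 gene to rise among 3 tested in SMAD3 and among 5 tested in H3K27ac in the list of the other synthase, link proteins and proteoglycans. HAPLN1, HAPLN2, BCAN and NCAN did not pass in any target in which they were tested.

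Among genes of hyaluronan breakdown, CEMIP, which binds and depolymerises hyaluronan, had H3K27ac of 1.35 and 1.93 kb with TGF-beta and of 0 and 0.182 kb with vehicle (log2 change 1.77, adjusted p = 0.000775, limma). It had no SMAD3 peak in any library. It passed the minimum length through its TGF-beta libraries, so this change and its p are given as a description. HYAL4, a hyaluronidase family member that mainly cleaves chondroitin sulfate, fell by 1.00 on the log2 scale in H3K27ac, with 1.01 and 1.29 kb with TGF-beta, against 2.71 and 2.48 kb with vehicle (adjusted p = 0.0015, limma). HYAL3 rose in SMAD3, with 5.04 and 5.09 kb with TGF-beta, against 1.91 and 2.41 kb with vehicle (log2 change 0.75, adjusted p = 0.00411, limma), and lies in a cluster with HYAL1 and HYAL2, which did not pass. In all, H3K27ac rose at 2 and fell at 1 of 9 genes tested of this list.

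Among the matrix modifiers, 1 of 3 genes tested in H3K27ac rose and 1 fell, both of the inter-alpha-trypsin inhibitor heavy chain family. ITIH4 rose in H3K27ac by 0.94 on the log2 scale (1.10 and 1.23 kb with TGF-beta, against 0.467 and 0.187 kb with vehicle, adjusted p = 0.00971, limma). Like CEMIP it passed the minimum length through its TGF-beta libraries, so this change and its p are a description too. ITIH2, a heavy chain that is transferred from the inhibitor onto hyaluronan, fell by 1.09 (2.14 and 1.79 kb with TGF-beta, against 4.48 and 4.35 kb with vehicle, adjusted p = 0.00045, limma). At ITIH4 both TGF-beta libraries stood above both vehicle libraries, as in 40.7% of all genes tested in H3K27ac. At ITIH2 both stood below them, as in 20.9%. Both other receptors tested in H3K27ac rose. TLR2 and TLR4, innate receptors that respond to hyaluronan fragments, changed by 0.96 (adjusted p = 0.000682) and 0.42 (adjusted p = 0.0098, limma). TLR4 rose in H3K9ac as well, by 0.32 (adjusted p = 0.0498, limma). LYVE1 and STAB2, receptors of lymphatic and sinusoidal endothelium, had no H3K27ac peak. Of the versican-cleaving proteases, ADAMTS4 rose in H3K27ac by 0.34 (adjusted p = 0.0218, limma), 1 of 2 tested. Of the CD44 partners, MMP14, a membrane protease that sheds CD44, rose in SMAD3 by 1.24 on the log2 scale, with 8.0 and 7.48 kb with TGF-beta, against 1.89 and 2.76 kb with vehicle (adjusted p = 0.000673, limma). MSN, which ties CD44 to actin, rose in H3K27ac by 0.66 (14.8 and 16.9 kb with TGF-beta, against 8.94 and 9.46 kb with vehicle, adjusted p = 0.00322, limma). Both also rose in H3K9ac, by 0.39 and 0.56, and MMP14 rose in H3K27ac too, by 0.39 (adjusted p = 0.0125, limma).

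The genes whose centred log2 lengths were most like those of a member over the 12 libraries, among 12313 genes tested in all 3 targets, were named by the smallest root mean square difference. They were DNAJC5 (0.106), CCDC3 (0.114) and OGT (0.12) for HAS2, and RALGPS2 (0.202), TASOR2 (0.212) and TRMT44 (0.217) for HAS3. For VCAN they were BRI3 (0.145), PNPLA3 (0.153) and ATF6B (0.160), for CD44 CDH5 (0.165), IL1R2 (0.17) and MRPL15 (0.173), and for HMMR RPL7L1 (0.105), NIPSNAP1 (0.115) and ST20-MTHFS (0.117). HAPLN3 was not tested in all 3 targets and has no such neighbours.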

How the data were processed

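H69 cells treated with TGF-beta or vehicle were profiled by ChIP-seq; cells were fixed in 1% formaldehyde for 10 min and libraries read from both ends at 51 bases, per the labels' protocols. BWA, Picard, MACS2 and bedtools and the build hg38 are named in the submitters' processing notes; their versions, order and cutoff, and the control, are given nowhere in the sources used. For every library the authors deposited a peak list called on it alone, with a -log10 score of a p or q value, without saying which. The 4 input samples were not used here. The file headers name the lane, 8 for every SMAD3 library and for TGF-beta replicate 2 of both marks, and 7 for the other mark libraries.

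Chromosomes 1 to 22 and X were kept. Gene spans came from RefSeq, GRCh38.p14, which gives no exons, so exon or intron is not stated; start sites came from its promoter table, and for HAS2 distances run from the upper end of the span. Lengths inside peaks were taken per gene span with 10 kb on each side. Values were log2(length + 500 bp) for genes whose mean over libraries reached 500 bp, centred per library on the median over such genes covered in all 4 libraries. TGF-beta was tested against vehicle with limma 3.58.1 in R 4.3.3, per target, and between marks as a treatment by mark term, with Benjamini-Hochberg adjustment over all genes at 0.05. Adjusted p-values without another tool named are from these fits. The scripts were tested on simulated data. Peaks of a target overlapping by 1 bp were merged and classed as gained (both TGF-beta libraries, no vehicle library), lost (the reverse) or constant (all 4). Read depth is unknown, so no counting error can be given.

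The members, the 7 pathway lists, the marker lists and the tests were chosen with earlier results of these data known. Named besides the 6 members were up to 2 pathway genes per list and direction with the largest change past the threshold, and the 3 genes most like each member. Pseudocounts of 100 and 2000 bp, no filter, no centring, windows of 2.5 and 50 kb, equal peak numbers, a score minimum of 5, limma with trend and robust options, the replicate block and leaving out each library were tried. Python 3.11.15, numpy 2.4.6, pandas 2.3.3 and matplotlib 3.10.9 were used.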

Additional observations from a re-analysis of the deposited data

Results flagged for a closer look

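At HAPLN3 the H3K27ac change with TGF-beta stood 2.38 above the H3K9ac change on the log2 scale (SE 0.186, adjusted p = 0.000474, limma, and 0.00102 with no minimum on peak length). H3K27ac covered 6.27 and 5.82 kb with TGF-beta and 0.152 and 0 kb with vehicle. H3K9ac covered 2.99 and 3.52 kb with TGF-beta and 1.43 and 1.43 kb with vehicle. The difference kept its sign and passed in all 14 other settings, from 0.44 in the window of 50 kb to 3.94 with a pseudocount of 100 bp. The gene reached the minimum length in H3K27ac through its TGF-beta libraries and vehicle is at or near 0, so the difference is given as a description and its size depends on the pseudocount. Beside it, 7.52% of all genes passed this test. Groups of 2 libraries are too small for a check of single outlying libraries.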

How the results depend on the processing

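HAPLN3 in both marks and CD44 in H3K27ac kept their direction and their call in every setting. HAPLN3 reached the minimum length in H3K27ac through its TGF-beta libraries, with vehicle at or near 0. Its H3K27ac call is therefore a description, and the change ran from 0.93 to 5.17 over the settings. The HAS3 fall in H3K27ac was lost and reversed in the window of 50 kb (0.054), and the VCAN fall was lost in 4 settings given with it. Among the values for single genes, 287 kept their direction and side of the threshold. HAS2 in H3K27ac passed in the 50 kb window (-0.27, adjusted p = 0.0476, among 0.0476 to 0.671). The other reversed values belong to changes that were not called. Without centring they were -0.039 for CD44 in H3K9ac, 0.32 for HMMR in SMAD3, and 0.067 for HAS3 and 0.11 for VCAN in the difference between marks. In the 50 kb window they were -0.051 for HAS2 and -0.044 for HAS3 in SMAD3, 0.038 for HAS3 in H3K9ac and 0.017 for HAS3 between marks. With a pseudocount of 2000 bp they were -0.031 for HAS2 and 0.029 for HMMR in SMAD3, and in the window of 2.5 kb -0.042 for HAS3 in SMAD3. On leaving out single libraries the ranges were -0.20 to 0.21 for HAS2, -0.23 to 0.47 for HAS3 and -0.077 to 0.064 for HMMR in SMAD3, -0.11 to 0.22 for CD44 in H3K9ac, and -0.30 to 0.073 for HAS3 and -0.16 to 0.014 for VCAN between marks. The causes were not tested.

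Genes called numbered 3698 in H3K27ac, 1383 in H3K9ac, 1605 in SMAD3 and 1088 between marks. With the 50 kb window they were 6019, 2316 and 3021 in the 3 targets, which tests more genes. Without centring H3K9ac gave 557, and with equal peak numbers SMAD3 gave 712. Leaving out single libraries gave 2383 to 3230 in H3K27ac, 899 to 1546 in H3K9ac, 789 to 1814 in SMAD3 and 201 to 702 between marks. Calls between marks without centring were 1090 higher and 75 lower, against 800 and 288 with it. At a score minimum of 5, gained H3K9ac regions of the members numbered 3 in place of 5.

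Libraries share replicate numbers across treatments, but the labels do not say that a number marks a shared culture or day, and deviations of same-numbered libraries correlated at -0.07 in SMAD3, -0.02 in H3K27ac and -0.14 in H3K9ac over genes, so the numbers were not taken as pairs. With the replicate block, 1671 genes were called in SMAD3, 3666 in H3K27ac, 1706 in H3K9ac and 754 between marks. HAS3 in H3K9ac passed with the block (-0.41, adjusted p = 0.0107, among 0.0107 to 0.775), and no other member's call differed. Peak calling limits every length here, since shallow signal is not listed, and the depth behind the lists is unknown. A lone library left in a group was assumed to vary like the others.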

Other observations

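TNFAIP6, which moves heavy chains onto hyaluronan, lay under the minimum length and was not tested; it is named here after its values were seen. Its H3K27ac covered 0.872 and 1.02 kb with TGF-beta and was listed at 0 in both vehicle libraries, and its H3K9ac covered 0.135 and 0.142 kb with TGF-beta and was listed at 0 with vehicle. PTX3, a partner of TNFAIP6 in the hyaluronan matrix, also chosen after its values were seen, was listed at 0 in H3K27ac in both TGF-beta libraries, against 0.642 and 0.172 kb with vehicle. Its H3K9ac covered 1.03 and 1.04 kb with TGF-beta and 1.39 and 1.36 kb with vehicle (log2 change -0.19, adjusted p = 0.208, limma). Neither gene had a SMAD3 peak in more than 1 library of a treatment.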
